A study of Mus musculus with 16 samples.

Results

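The genes described here are 8 that move iron across the absorptive cell of the small intestine or store it there. They were picked by gene symbol out of the 54532 genes of the mouse count table, and all 8 were measured in every one of the 16 libraries. They are Cybrd1 and Slc11a2 at the brush border, the ferritin chains Fth1 and Ftl1 inside the cell, Slc40a1 and Heph at the basolateral membrane, the transferrin receptor gene Tfrc, and Epas1, which encodes the transcription factor HIF-2α.

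RNA was sequenced from enteroids, which are epithelial cultures grown from the jejunal crypts of adult mice and then differentiated. There were 4 groups with 4 cultures each, and the study's text gives 4 mice per group. By the study's culture methods, control enteroids carried Vil1-CreERT2 with Myo5b flox/flox and were not induced, with ethanol named as the vehicle; their label gives no treatment, and another passage of the study describes the controls as healthy littermates. The knockout (iKO in the labels, MYO5BΔIEC in the study) had the same alleles and received 1 µM 4-OH-tamoxifen for 24 hours, so that Cre, driven by the villin promoter, cut the gene for myosin Vb, a motor protein that carries vesicles toward the apical membrane. MYO5B(G519R) enteroids carried Vil1-CreERT2 with Myo5b flox/G519R and received the same tamoxifen, which leaves the point mutant allele alone. The last group was the knockout with 100 nM Compound-1, an agonist that prefers the lysophosphatidic acid receptor LPAR5, for the 2 days of differentiation, and the untreated knockout had its vehicle. If the controls were as the culture methods say, all 16 cultures carried the Cre transgene and a floxed allele. Against the controls, tamoxifen and the loss of MYO5B cannot be told apart, because the labels name tamoxifen only for the other 3 groups.

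Iron from food is reduced at the brush border, taken in as ferrous iron, and then either stored in ferritin or passed out to the blood through ferroportin, after which a ferroxidase oxidizes it for loading onto transferrin. The duodenum and the upper jejunum do most of this work. Enterocytes match uptake to need in 2 main ways. Iron regulatory proteins bind a hairpin, the iron-responsive element, in certain messenger RNAs when iron is scarce; a hairpin ahead of the coding sequence then holds translation back, whereas hairpins behind it protect the RNA from decay. HIF-2α, which is stabilized when oxygen or iron is low, raises transcription of the uptake and export genes.

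The hairpins are shown because they are the elements that iron regulatory proteins bind in these messenger RNAs. Annotated protein-coding transcripts of mouse (GENCODE vM21, GRCm38) were searched on the sense strand for a C, then 5 bases, then CAGTG and 1 further base, then 5 bases that can all pair with the first 5, with G and T allowed to pair. Of 21842 protein-coding genes, 31 (0.142%) held this pattern in a 5′ UTR and 129 (0.591%) in a 3′ UTR. Among the members it was found ahead of the coding sequence in Fth1, Ftl1 and Slc40a1 and behind it in Tfrc, in each case within 1 exon. The capitals mark the unpaired C and the CAGTG of the loop, and each sequence is the transcript strand written as DNA, with 6 bases added on both sides of the pattern.
Fth1 5′ UTR, chr19:9982732-9982760, plus strand: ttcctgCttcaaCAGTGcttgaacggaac
Ftl1 5′ UTR, chr7:45459779-45459807, minus strand: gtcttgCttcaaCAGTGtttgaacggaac
Slc40a1 5′ UTR, chr1:45925465-45925493, minus strand: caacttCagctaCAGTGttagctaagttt
Tfrc 3′ UTR, chr16:32631219-32631247, plus strand: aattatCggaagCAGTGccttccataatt
Tfrc 3′ UTR, chr16:32631598-32631626, plus strand: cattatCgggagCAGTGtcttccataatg
Tfrc 3′ UTR, chr16:32631663-32631691, plus strand: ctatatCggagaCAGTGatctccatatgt
Tfrc 3′ UTR, chr16:32631710-32631738, plus strand: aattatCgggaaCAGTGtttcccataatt
The other 4 members had no match to this strict pattern, which says only that these letters with full pairing are not in the annotated transcripts. A hairpin with a mismatch or an extra base in its stem would have been missed. The search therefore does not show that these 4 lack an iron-responsive element.

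Library totals ran from 27804968 to 40101729 counts, and each member had at least 356 counts in every library. Levels are given as CPM, counts set on a common library size with the trimmed mean of M values, and p-values come from the quasi-likelihood test of edgeR, adjusted over all genes tested by the Benjamini-Hochberg method. Such a p-value sets the difference between groups against the spread between cultures. All 12 enterocyte markers examined were detected in every group, whereas red blood cell markers summed to at most 0.952 CPM in any library and immune markers to at most 9.38 CPM; Hbb-bs, Hbb-bt and Adgre1 were at 0 in all 16. Myo5b itself averaged 189 ± 29.9 CPM in control (SD, n = 4), 128 ± 31.0 in the knockout, 150 ± 17.0 in MYO5B(G519R) and 111 ± 26.8 in the treated knockout. It passed the test against control only in the treated knockout (log2 fold change -0.77, adjusted p = 0.0146, edgeR); the adjusted p was 0.0503 in the untreated knockout and 0.109 in MYO5B(G519R). In bulk RNA, fewer cells of a type and less RNA per cell cannot be told apart. Control culture 1 stood apart from the other controls: the rank correlation between gene length and a gene's deviation from the mean of all libraries was 0.104 there and between -0.34 and -0.32 in the other 3, and its enterocyte markers summed to 6650 CPM against 21871 to 27165. Without it the number of members passing the test was 4 in the knockout, 3 in MYO5B(G519R) and 5 in the treated knockout, against 4, 3 and 4 with it.

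Between genes, levels were compared per length, in FPKM. In control enteroids the ferritin heavy chain stood highest at 1523 ± 301 FPKM (SD, n = 4), and its light chain followed at 461 ± 65.9 FPKM. Tfrc was at 82.0 ± 7.42 FPKM and Slc11a2 at 64.8 ± 14.9 FPKM, and the values of these neighbours overlapped between 72.5 and 84.9 FPKM. Cybrd1 (25.3 ± 5.15 FPKM) and Heph (15.9 ± 2.55 FPKM) came next and did not overlap. Slc40a1 (6.38 ± 3.88 FPKM) and Epas1 (2.89 ± 0.437 FPKM) were lowest and overlapped. In the untreated knockout Slc11a2 stood at 168 ± 108 FPKM and Cybrd1 at 91.6 ± 37.9 FPKM, both above the 59.5 ± 10.1 FPKM of Tfrc by their means, although the ranges of all 3 overlapped.

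In both the knockout and MYO5B(G519R), RNA for the brush border reductase and for HIF-2α passed the test as higher than in the controls. RNA for the transferrin receptor passed as lower. The Epas1 calls held with any 1 culture left out, as did that of Cybrd1 in the knockout. The Cybrd1 call in MYO5B(G519R) was lost in 6 of 8 such fits. That of Tfrc was lost in 6 of 8 in the knockout and 7 of 8 in MYO5B(G519R). In the knockout, 3 members rose (Cybrd1, Epas1 and Slc40a1) and 1 fell (Tfrc), where 13.5% of the 17951 genes tested rose and 13.8% fell. In MYO5B(G519R), 2 rose (Cybrd1 and Epas1) and 1 fell (Tfrc), beside 13.1% of genes higher and 13.7% lower. In the treated knockout, 3 rose (Cybrd1, Epas1 and Heph) and 1 fell (Tfrc), beside 15.7% and 13.7%. The median log2 fold change over all genes tested was within 0.06 of 0 in each comparison. These 3 comparisons share the same 4 control cultures. The groups of cultures did not overlap for 2 of 8 members in the knockout, where this was so for 26.9% of all genes tested; for 2 of 8 in MYO5B(G519R), against 27.4%; and for 3 of 8 in the treated knockout, against 27.9%. As a list, the members were near the share of all genes whose groups separated.

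**Figure D1:**
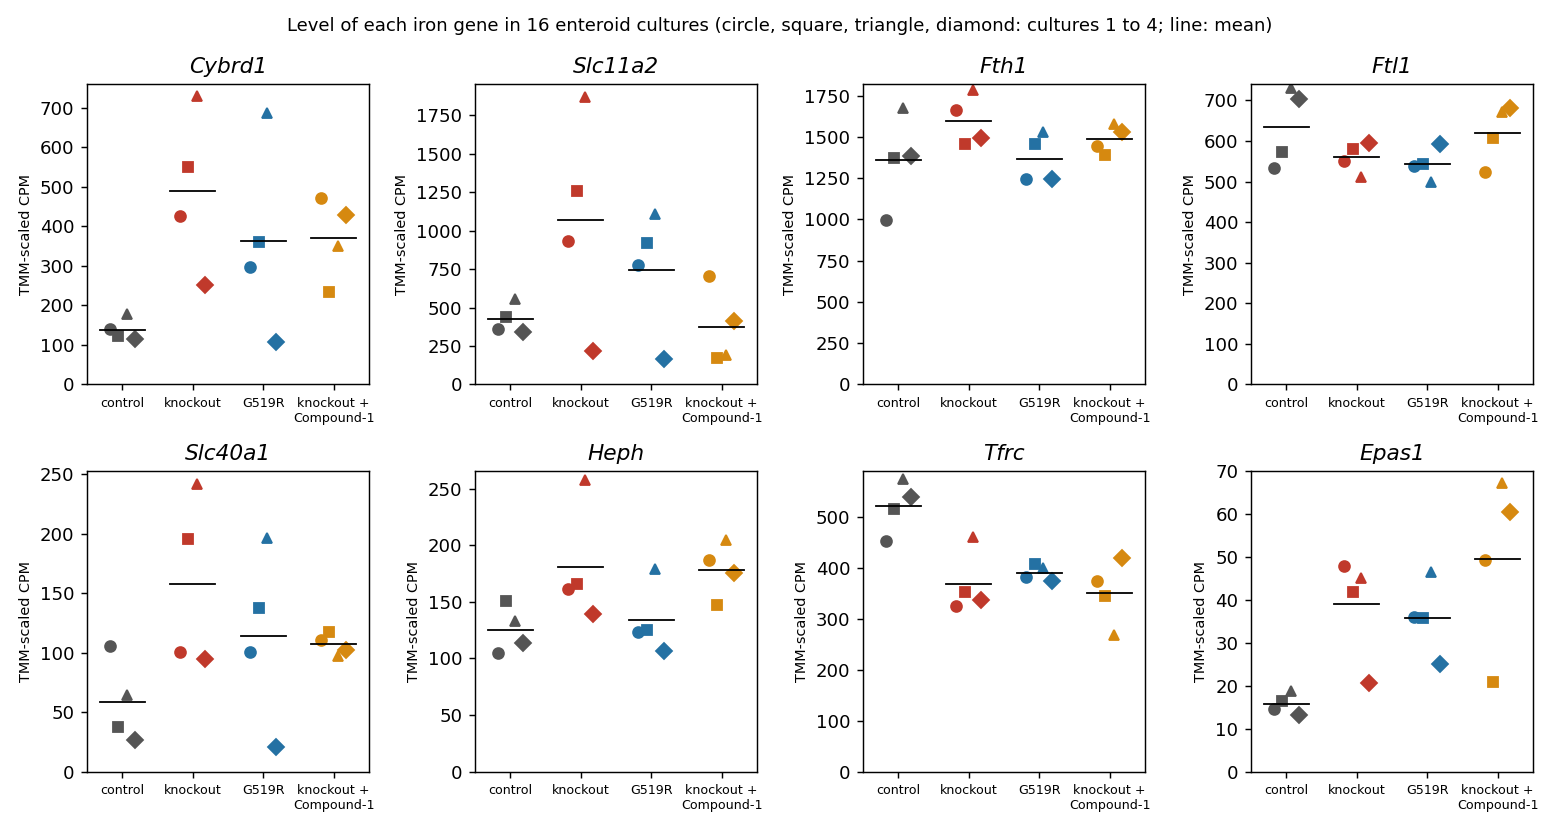
CPM of each of the 8 genes (vertical axis, from 0) in control, knockout, MYO5B(G519R) and Compound-1-treated knockout enteroids, with 1 symbol per culture and a line at the group mean. Cybrd1 and Epas1 sit above the controls in every knockout culture, Tfrc sits mostly below them, and Slc11a2 spreads from 220 to 1871 CPM within the untreated knockout.

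Cybrd1 encodes duodenal cytochrome b, the reductase that turns ferric into ferrous iron at the brush border (chr2:71117923-71142926, plus strand). Its levels were 139, 123, 177 and 114 CPM in the 4 control cultures and 427, 552, 730 and 253 CPM in the untreated knockout. Every knockout culture lay above every control, with a log2 fold change of 1.83 ± 0.29 (SE; 3.56-fold; adjusted p = 0.00242, edgeR, n = 4 per group). In MYO5B(G519R) the levels were 298, 359, 687 and 107 CPM. Culture 4 there was below all the controls while the other 3 were above them, and the group was higher by 1.39 ± 0.44 on the log2 scale (adjusted p = 0.0414). That call was lost in 6 of the 8 fits that left out 1 culture, namely control 2, 3 or 4 and MYO5B(G519R) 1, 2 or 3, and the log2 fold change was 0.88 without MYO5B(G519R) culture 3 (adjusted p = 0.122). It was also lost with limma on log2 FPKM (adjusted p = 0.112 and 0.108 with pseudocounts of 1 and 0.1). The treated knockout had 471, 234, 351 and 429 CPM, all above the controls (log2 fold change 1.42 ± 0.24, adjusted p = 0.0044). The calls in the untreated and the treated knockout held in every alternative and with any 1 culture left out.

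The promoter table of RefSeq (GRCm38.p6), which spans 250 bases ahead of a start site to 50 after it, held Cybrd1, Fth1, Ftl1 and Tfrc. It was searched on both strands for ACGTG and GCGTG, the core letters of the site to which HIF factors bind; the motifs differ in their first base and cannot share all 5 positions on 1 strand. Since 43.8% of the 32851 promoters in the table held at least 1 of them, a match is common. The Cybrd1 window had 1, shown because this gene rose together with Epas1, with GCGTG in capitals and beginning 161 bases ahead of the start site.
Cybrd1 promoter, chr2:71117881-71117909, plus strand: cacggtgcagccGCGTGatcgggggtgga
The Ftl1 window had 1 match, 1 of the 2 Fth1 windows had 1, and each of the 2 overlapping Tfrc windows had 3. A match describes the letters and does not show that a factor bound there.

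Slc11a2 encodes DMT1, the transporter that carries ferrous iron into the cell together with protons (chr15:100387898-100425072, minus strand). Control cultures had 360, 438, 556 and 339 CPM, and the untreated knockout had 936, 1256, 1871 and 220 CPM. Of the knockout cultures, 3 were above all the controls and culture 4 was below them all, an 8.50-fold spread within 1 group. The log2 fold change was 1.35 ± 0.48 and did not pass the test (adjusted p = 0.0598, edgeR, n = 4 per group); with no filter on low counts it did (adjusted p = 0.0252). Without knockout culture 4 it was 1.69, with an adjusted p of 0.00328. MYO5B(G519R) had the same shape, with 777, 920, 1110 and 163 CPM. Its difference from control was 0.81 ± 0.46 on the log2 scale (adjusted p = 0.215), and 1.15 without culture 4 (adjusted p = 0.00778). The treated knockout had 703, 174, 189 and 415 CPM, spanning the controls on both sides (log2 fold change -0.19 ± 0.41, adjusted p = 0.756).

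Fth1 and Ftl1 encode the heavy and light chains of ferritin, the shell in which the cell stores iron; the heavy chain carries the ferroxidase site and the light chain helps the mineral core to form. Fth1 (chr19:9982703-9985092, plus strand) averaged 1357 ± 277 CPM in control, 1599 ± 152 in the knockout, 1368 ± 147 in MYO5B(G519R) and 1485 ± 84.7 in the treated knockout (SD, n = 4). Ftl1 (chr7:45457944-45459884, minus strand) averaged 635 ± 95.9, 559 ± 36.5, 543 ± 38.6 and 621 ± 73.0 CPM in the same order. Neither chain passed the test in any of the 5 comparisons, and the 95% confidence intervals of their log2 fold changes against control lay between -0.54 and 0.65. With the trend on gene length removed, Fth1 was higher in the untreated knockout by 0.55 on the log2 scale (adjusted p = 0.0233) and in the treated knockout by 0.49 (adjusted p = 0.0356). Ferritin is set mainly through translation, which these libraries do not measure. Reads from the processed copies of these genes that the table lists made up 1.89% to 3.11% of the light chain family and at most 0.0345% of the heavy chain family.

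Within a library the ratio of Fth1 to Ftl1 reads does not depend on how libraries are scaled. It was 1.87, 2.39, 2.30 and 1.97 in the controls and 3.02, 2.51, 3.48 and 2.51 in the untreated knockout. The groups did not overlap, and the ratio was 1.35-fold higher in the knockout. An exact two-sided permutation test gave p = 0.0286, which is the smallest that 4 against 4 cultures allow, and 0.143 after adjustment over the 5 comparisons. With a single separated comparison among 5 the adjusted value could not have been lower. The adjusted test could have passed only if more of the comparisons had separated. The ratio averaged 2.54 ± 0.428 in MYO5B(G519R) and 2.41 ± 0.235 in the treated knockout (SD, n = 4), and neither passed the same exact test against control (adjusted p = 0.238 and 0.314).

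**Figure D2:**
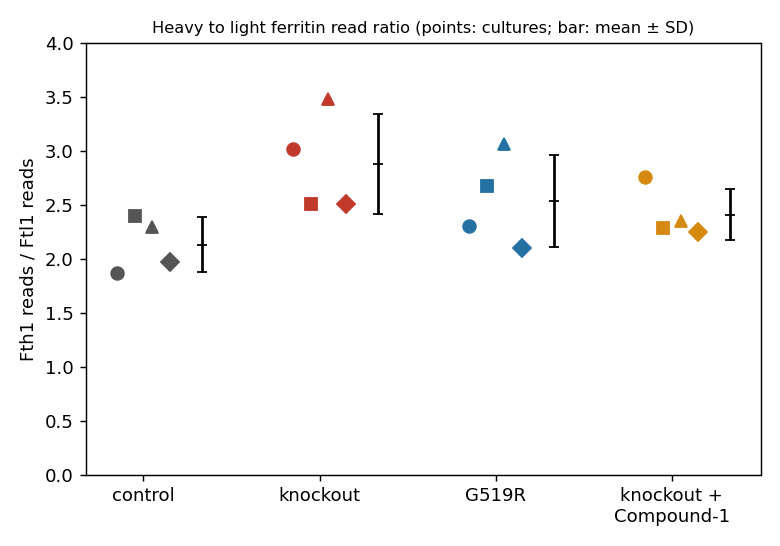
Ratio of Fth1 to Ftl1 reads (vertical axis, from 0) in the 16 cultures, with 1 symbol per culture and the group mean ± SD beside them. The untreated knockout cultures lie between 2.51 and 3.48, above the control range of 1.87 to 2.39.

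Slc40a1 encodes ferroportin, the iron exporter of the basolateral membrane (chr1:45908068-45926523, minus strand). The controls were spread widely, at 105, 37.5, 64.7 and 27.0 CPM, and the untreated knockout had 101, 195, 242 and 94.4 CPM. Control culture 1, which differed from the other controls in gene length trend and enterocyte markers, lay within the knockout range. The knockout was higher by 1.44 ± 0.43 on the log2 scale (2.71-fold; adjusted p = 0.0303, edgeR, n = 4 per group) and by 1.88 without control culture 1 (adjusted p = 0.00241). The call was lost without control 2, 3 or 4 or without knockout 2 or 3, with adjusted p from 0.0655 to 0.0919. MYO5B(G519R) had 101, 138, 196 and 20.8 CPM, a 9.43-fold spread whose lowest culture was again culture 4 (log2 fold change 0.96 ± 0.59, adjusted p = 0.260). In the treated knockout the 4 cultures were close together, at 111, 118, 97.4 and 103 CPM. They were higher than control by 0.87 ± 0.35 on the log2 scale without passing the test (adjusted p = 0.0841), and by 1.34 without control culture 1 (adjusted p = 0.0031). DESeq2, no filter and the replicate block also took it past the threshold (adjusted p = 0.0433, 0.0488 and 0.0436).

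Heph encodes hephaestin, the membrane ferroxidase that works beside ferroportin (chrX:96455359-96574485, plus strand). Controls had 105, 151, 133 and 114 CPM, the untreated knockout 161, 165, 258 and 139 CPM, and the treated knockout 187, 147, 205 and 175 CPM. In the knockouts 3 of 4 cultures lay above all the controls and 1 lay among them, in both the untreated and the treated group. The log2 fold change was 0.53 ± 0.20 in the untreated knockout (adjusted p = 0.0751) and 0.51 ± 0.16 in the treated one, where it passed (adjusted p = 0.0410, edgeR, n = 4 per group). The latter call was lost without control 3 or 4 or treated knockout 1, 3 or 4 (adjusted p from 0.0774 to 0.117), and also in 5 of 11 other alternatives, and the 2 estimates are nearly equal. DESeq2 and the fit of all 4 groups put the untreated knockout past the threshold (adjusted p = 0.0471 and 0.0486). MYO5B(G519R) had 123, 125, 179 and 107 CPM, with a log2 fold change of 0.09 ± 0.18 (adjusted p = 0.754).

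Tfrc encodes transferrin receptor 1, which takes in transferrin-bound iron on the blood-facing side and is high in dividing crypt cells (chr16:32608920-32632794, plus strand). Control cultures had 453, 517, 576 and 541 CPM. The untreated knockout had 325, 353, 462 and 338 CPM, and MYO5B(G519R) had 383, 408, 400 and 375 CPM. The MYO5B(G519R) cultures were all below the controls and lay closest together, whereas knockout culture 3 just exceeded the lowest control. The fall was 0.71-fold in the knockout (log2 fold change -0.49 ± 0.16, adjusted p = 0.0437), 0.75-fold in MYO5B(G519R) (-0.41 ± 0.12, adjusted p = 0.0294) and 0.67-fold in the treated knockout (-0.57 ± 0.17, adjusted p = 0.0329; edgeR, n = 4 per group). The treated knockout had 375, 346, 268 and 419 CPM, all below the controls. Every left-out fit kept the direction against control, but the call was lost in 6 of 8 such fits for the knockout, 7 of 8 for MYO5B(G519R) and 5 of 8 for the treated knockout. It stayed past the threshold without control culture 1 in all 3 comparisons and, apart from that, without knockout culture 3 and treated knockout cultures 1 and 4. With no filter on low counts it was lost in all 3 (adjusted p = 0.0690, 0.0710 and 0.0563), and also with the replicate block (0.0647, 0.0868 and 0.0690). With donor sex as a covariate it was lost in the treated knockout (adjusted p = 0.0521). Donor sex was inferred from Xist counts against those of Y-linked genes. By this, control and the untreated knockout each had 2 female and 2 male cultures. MYO5B(G519R) and the treated knockout each had 1 female and 3 male cultures. Of the 6 proliferation markers, 4 fell in the knockout, 3 in MYO5B(G519R) and 3 in the treated knockout. Their summed level was 1520 to 1970 CPM in control, 1071 to 1367 in the knockout, 1288 to 1630 in MYO5B(G519R) and 720 to 1411 in the treated knockout, so that MYO5B(G519R) overlapped control and both knockout groups did not. The 6 stem and crypt markers summed to 3882 to 7326 CPM in control and at most 3543 CPM in the other groups, and 1 of the 6 fell in each. Such a sum is weighted to the most abundant markers. The median log2 fold change of the 6 was -0.04 in the knockout, 0.13 in MYO5B(G519R) and -0.27 in the treated knockout. The part of the proliferation and crypt markers in the difference in Tfrc was not tested.

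Epas1 (chr17:86753907-86833410, plus strand) had the lowest level per length of the 8 genes in control. Controls had 14.7, 16.6, 18.7 and 13.2 CPM, and the untreated knockout had 48.0, 41.9, 45.2 and 20.7 CPM. MYO5B(G519R) had 36.0, 35.8, 46.6 and 25.0 CPM, and the treated knockout had 49.4, 20.8, 67.3 and 60.5 CPM. All 12 cultures of these groups lay above all 4 controls. The log2 fold change was 1.31 ± 0.25 in the knockout (2.48-fold, adjusted p = 0.00445), 1.18 ± 0.19 in MYO5B(G519R) (2.27-fold, adjusted p = 0.00337) and 1.65 ± 0.31 in the treated knockout (3.14-fold, adjusted p = 0.00596; edgeR, n = 4 per group). All 3 calls held in every alternative and with any 1 culture left out, with log2 fold changes from 0.97 to 1.90. The RNA level of Epas1 is not the level or activity of HIF-2α, which is set largely through the stability of the protein.

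**Figure D3:**
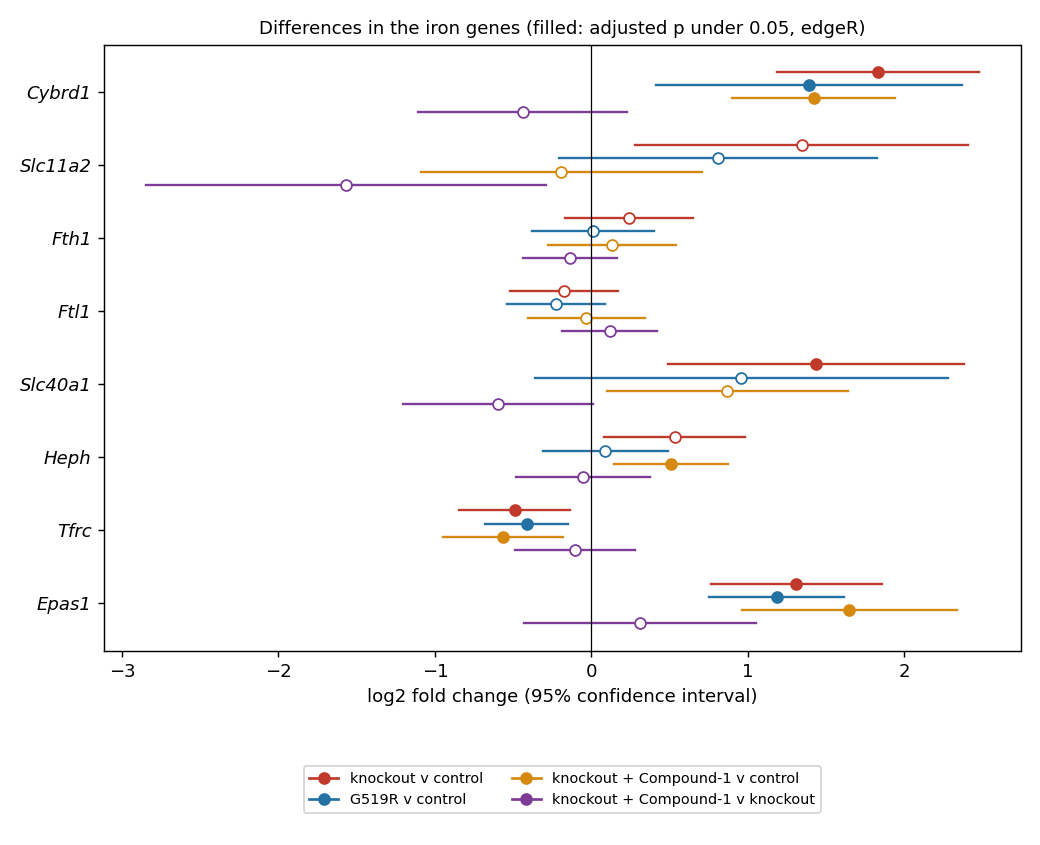
Log2 fold change of each gene (horizontal axis, with its 95% confidence interval) in 4 comparisons, with filled points where the adjusted p was under 0.05. Cybrd1 and Epas1 are filled to the right and Tfrc to the left in all 3 comparisons with control, both ferritin chains are open near 0, and no point is filled for Compound-1-treated against untreated knockout.

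The cultures of a group differed, and several members were low or high in the same ones. In both the untreated knockout and MYO5B(G519R), culture 4 held the lowest level of Slc11a2, Cybrd1, Slc40a1, Heph and Epas1, and culture 3 held the highest level of 6 of the 8 members. Culture 2 of the treated knockout was the lowest for Slc11a2, Cybrd1, Heph and Epas1 but the highest for Slc40a1. Among the controls, culture 4 was lowest for Slc11a2, Cybrd1, Slc40a1 and Epas1, and culture 3 was again highest for 6 of the 8 members. Summed enterocyte markers were 12352 CPM in culture 4 of the knockout, where the group ran from 11486 to 20083, and 9971 CPM in culture 4 of MYO5B(G519R), the lowest of a group that reached 14185. Of the 12 enterocyte markers, 3 rose and 0 fell in the knockout, 2 rose and 2 fell in MYO5B(G519R), and 3 rose and 4 fell in the treated knockout. Their median log2 fold change against control was 0.45, -0.06 and -0.48 in the same order. A sum of CPM is weighted to the most abundant markers, and in the knockout it moved opposite to this median. Summed, they had a median of 22289 CPM in control, 15590 in the knockout, 11216 in MYO5B(G519R) and 10672 in the treated knockout, and no culture of the last 3 groups reached the 21871 CPM of the lowest of controls 2, 3 and 4. Their part in the levels of these genes was not tested. The labels give no shared mouse or day for cultures of the same number. The correlations between same-numbered cultures did not meet the criterion for pairing, that every pair exceed 0.1. Between MYO5B(G519R) and the knockout they were 0.13, 0.07, 0.47 and 0.57 in order of number. Cultures 3 and 4 of these groups thus deviated in a similar way across genes.

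**Figure D4:**
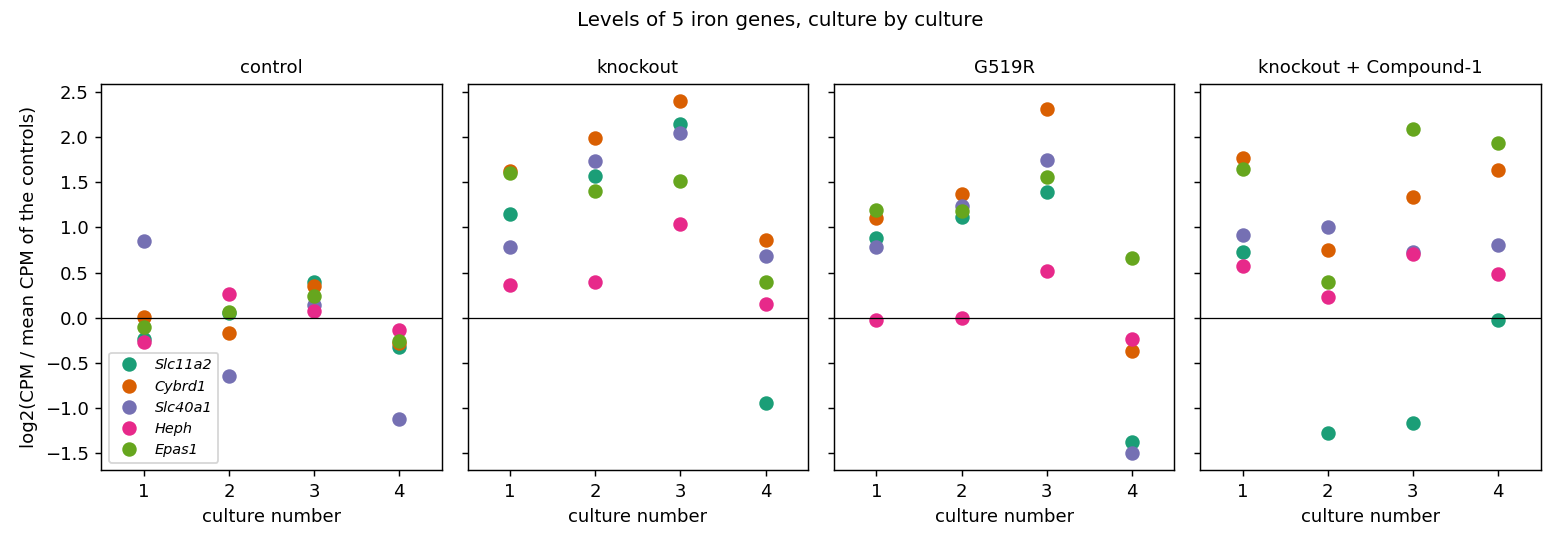
Levels of Slc11a2, Cybrd1, Slc40a1, Heph and Epas1 in each culture (horizontal axis, culture number within its group), as log2 of the CPM over the mean CPM of the controls. Culture 4 of the knockout and of MYO5B(G519R) is lowest for all 5, and Slc11a2 drops below the control mean there and in 3 of the treated cultures.

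Compound-1 was added to ask what the LPAR5 agonist does to knockout enteroids. None of the 8 members passed the test between treated and untreated knockout, where 0% of the 18037 genes tested did with edgeR (1355 had an unadjusted p under 0.05, and DESeq2 called 91, none of them a member). Slc11a2 was the only member with an unadjusted p under 0.05: it averaged 370 ± 248 CPM with Compound-1 and 1071 ± 687 CPM without (SD, n = 4). The log2 fold change was -1.57 ± 0.58 (adjusted p = 0.582, edgeR), with a 95% confidence interval from -2.85 to -0.29. The groups overlapped, since the lowest untreated culture had 220 CPM and the highest treated one 703 CPM. For Slc40a1 the log2 fold change was -0.60 (interval -1.20 to 0.01), for Cybrd1 -0.44 (-1.11 to 0.23) and for Epas1 0.31 (-0.43 to 1.05). A p that misses the threshold does not show that treated and untreated cultures were alike. The 12 enterocyte markers summed to 8895 to 13099 CPM with Compound-1 and 11486 to 20083 CPM without, and none of the 12 passed the test. Their part in the lower Slc11a2 values was not tested.

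MYO5B(G519R) and the untreated knockout, which differ in whether a mutant MYO5B protein remains, were compared directly, and no member passed the test where 1 of 17943 genes did (0.00557%; 772 had an unadjusted p under 0.05, and DESeq2 called 4). The smallest p among the members was that of Heph, lower in MYO5B(G519R) with a log2 fold change of -0.43 ± 0.21 (unadjusted p = 0.0577, adjusted p = 0.838, edgeR) and a 95% confidence interval from -0.89 to 0.02. The intervals were widest for Slc11a2 (-1.85 to 0.79) and Slc40a1 (-1.62 to 0.68). Set side by side by culture number, Slc11a2, Cybrd1, Slc40a1, Heph, Fth1 and Ftl1 were lower in MYO5B(G519R) in 4 of 4 numbers, Epas1 in 2 and Tfrc in 1, although the numbers were not found to pair cultures.

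Around the members, a list of 67 other genes of iron, heme and related metal handling was followed, of which 66 were in the table and 56 or 57 had enough counts to be tested. In the knockout, 9 rose and 8 fell, with a median log2 fold change of 0.07 beside -0.01 over all genes; in MYO5B(G519R), 6 rose and 7 fell (0.02 beside -0.05); and in the treated knockout, 5 rose and 9 fell (-0.04 beside -0.05). The shares over all genes are those given above for the members. None of the list passed between treated and untreated knockout or between MYO5B(G519R) and the knockout. Without control culture 1, 28 of the list passed in the knockout and 30 in MYO5B(G519R). Calls over all genes also depended on the cultures kept. They were 4910 and 4778 in the reported fits of these comparisons and reached 7474 and 8146 without 1 culture.

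Among metal transporters at the cell surface, Slc46a1, which takes up folate and heme, averaged 19.3 ± 4.95 CPM in control, 50.5 ± 13.2 in the knockout and 25.6 to 54.1 in the cultures of MYO5B(G519R) (SD, n = 4). It rose by 1.39 and 1.01 on the log2 scale (adjusted p = 0.00275 and 0.0153, edgeR), and the log2 fold change was 0.51 in the treated knockout (adjusted p = 0.151). Slc39a4, the zinc importer of the brush border, averaged 45.9 ± 16.6 CPM in control, 134 ± 28.3 in the knockout, 118 ± 17.4 in MYO5B(G519R) and 196 ± 83.1 in the treated knockout, with no overlap between control and any of them (adjusted p = 0.00234, 0.00355 and 0.00415). Slc39a14, an importer of zinc, manganese and iron not bound to transferrin, rose from 177 ± 14.4 to 357 ± 133 CPM in the knockout (adjusted p = 0.0114), with log2 fold changes of 0.55 in MYO5B(G519R) (adjusted p = 0.102) and 0.31 in the treated knockout (adjusted p = 0.190). Steap1, of a family of metal reductases, fell in the untreated knockout (log2 fold change -1.72, adjusted p = 0.0453) and in MYO5B(G519R) (-1.80, adjusted p = 0.0414). Control culture 1 had 70.9 CPM and the other 3 controls 12.6 to 15.5 CPM. Without control culture 1 the log2 fold change of Steap1 was -0.71 in the knockout, where the call was lost (adjusted p = 0.0802), and -0.74 in MYO5B(G519R), where it held (adjusted p = 0.0280). In the treated knockout Steap1 did not pass (-1.21, adjusted p = 0.147; -0.16 without control culture 1).

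In the set of other HIF pathway genes, Hif3a rose in the knockout (log2 fold change 1.74, adjusted p = 0.0191) and in MYO5B(G519R) (1.54, adjusted p = 0.0129). Arnt, the subunit with which HIF-2α pairs, rose by 0.40 on the log2 scale in MYO5B(G519R) (adjusted p = 0.0261) and by 0.44 in the knockout (adjusted p = 0.0266). Of the 7 genes of this set, the other 5 did not pass in either, and none passed in the treated knockout. Ltf, which encodes the iron-binding protein lactoferrin, rose in all 3 comparisons with control (log2 fold changes 3.38, 2.37 and 2.86), but from a level of 0.359 CPM in control.

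Mitochondria build heme and iron-sulfur clusters from iron. None of the 10 tested genes of mitochondrial iron and iron-sulfur clusters rose in any comparison with control. In the knockout 3 fell, in MYO5B(G519R) 2 and in the treated knockout 3. Over all genes tested, 13.8%, 13.7% and 13.7% fell in the same order, and 13.5%, 13.1% and 15.7% rose. The counts of this small set are given as a description, and the comparisons share the same controls. Lyrm4, a subunit of the complex that builds these clusters, averaged 23.1 ± 6.55 CPM in control, 8.48 ± 1.94 in the knockout, 9.66 ± 2.09 in MYO5B(G519R) and 9.26 ± 3.48 in the treated knockout (SD, n = 4). It fell in all 3 without overlap (adjusted p = 0.00242, 0.00485 and 0.0106, edgeR). Iscu, the scaffold on which clusters are assembled, also fell in all 3, by 0.68, 0.71 and 0.64 on the log2 scale. The share of counts from mitochondrially encoded genes moved with these groups: it was 6.41% to 10.4% in control and 3.79% to 6.63% in the other 12 libraries, and its part in the result was not tested. Of the heme synthesis genes, Urod fell in both knockout groups, while Alas1, the first enzyme of the pathway, rose from 59.0 ± 7.14 CPM in control to 83.2 ± 10.1 in the knockout and 118 ± 37.4 in the treated knockout (adjusted p = 0.0235 and 0.00904). Of the 7 genes of heme export and breakdown, 1 rose and 2 fell in the knockout, 1 fell in MYO5B(G519R) and 4 fell in the treated knockout; Abcg2, an exporter of heme and other molecules, fell in MYO5B(G519R) and in the treated knockout (log2 fold changes -0.88 and -0.74). With 1 culture left out at a time, the calls of Slc46a1, Slc39a4, Slc39a14 and Lyrm4 given here held in 8 of 8 fits. Those of Arnt, Iscu and Urod held in 2 of 8 in each comparison where they are given. The calls of Alas1 and Hif3a in the knockout held in 4 and 3 of 8. Steap1 held in 3 of 8 in the knockout and 4 of 8 in MYO5B(G519R). Ltf held in 4 of 8 in MYO5B(G519R), and Abcg2 in 3 of 8 in the treated knockout. Hif3a and Abcg2 in MYO5B(G519R), Ltf in both knockout groups and Alas1 in the treated knockout held in 8 of 8.

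**Figure D5:**
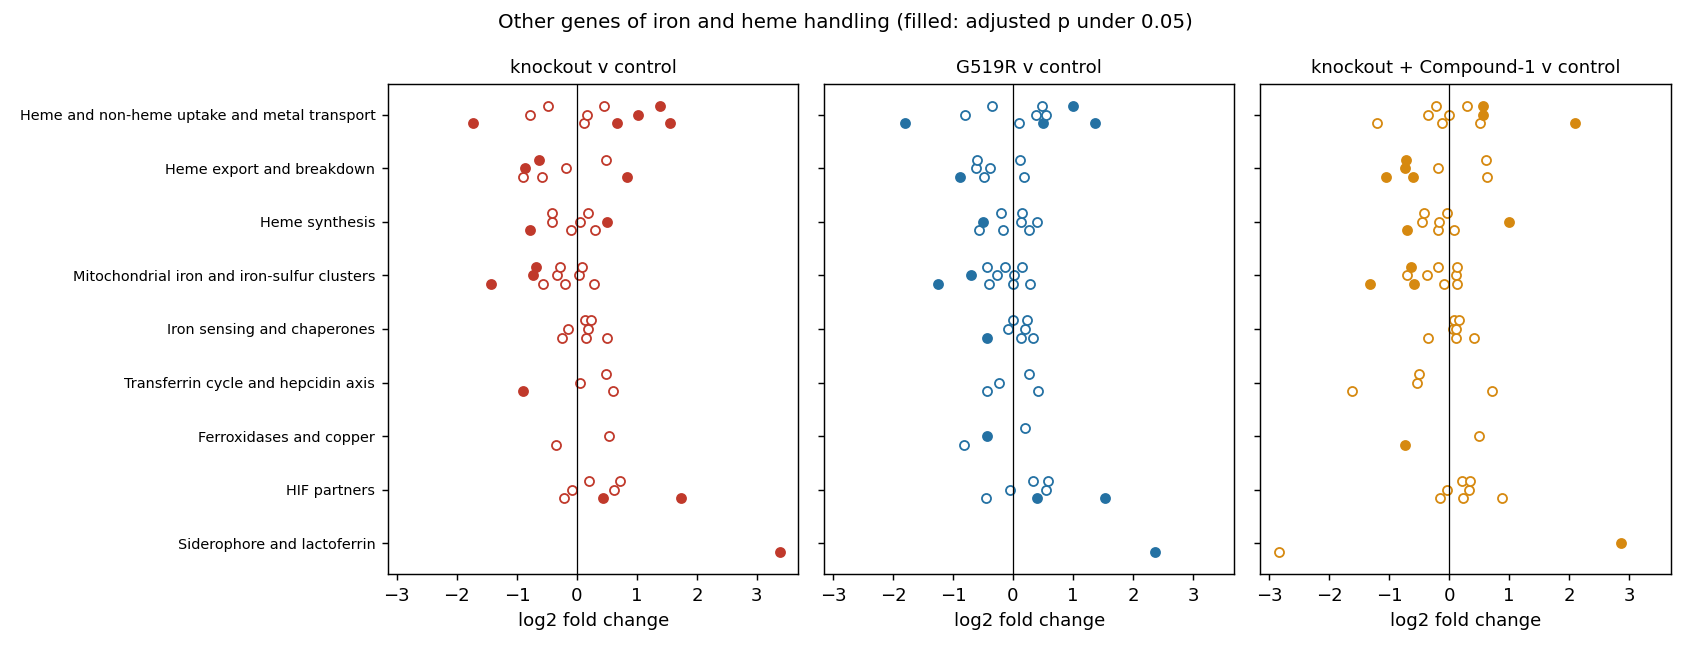
Log2 fold change (horizontal axis) of each tested gene of the 9 sets of the wider iron and heme list against control, in knockout, MYO5B(G519R) and Compound-1-treated knockout, filled where the adjusted p was under 0.05. Filled points of the uptake set lie mostly on the right, and those of the mitochondrial set lie on the left in every panel.

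The genes whose profile over the 16 libraries was most like each member's were taken from 10864 genes by the root mean square difference of centred log2 levels. For Cybrd1 they were Car2, a carbonic anhydrase gene (0.30), and Tnfaip2 (0.35), where Cybrd1 itself varied with an SD of 0.88. For Slc40a1 they were Hgfac (0.42) and Cybrd1 (0.46), the only case in which 1 member was among the nearest genes of another. For Epas1 they were Trp53inp2 (0.13) and Castor2 (0.17), beside an SD of 0.71. For Slc11a2 they were Kbtbd11 (0.43) and Nlrp9b (0.44), for Heph Abcc2 and Tmc5 (both 0.09), and for Tfrc Lactb2 (0.10) and Fam114a2 (0.12). The ferritin chains varied little (SD 0.19 and 0.16), so that many genes lay close to them; the nearest were Acadl and 9130019O22Rik for Fth1 (both 0.11) and Cd151 and Clta for Ftl1 (both 0.10). The libraries of a point share depth and scaling, and likeness of profile is given as a description.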

How the data were processed

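Poly(A) RNA from 16 enteroid cultures was sequenced by the authors' service provider. Per the labels the tools were STAR 2.5, TopHat, HTSeq 0.6.1 and DESeq2 on GRCm38 (mm10); strand setting and treatment of reads that map to several places are not given in the sources used here. The deposited tables hold raw read counts per gene, with no normalization by the authors, and FPKM, which the authors scaled by gene length and library size. Samples were grouped by their labels. No column was left without a sample, and no row lacked a gene.

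Each comparison took its 8 libraries. Genes that reached 10 counts in 2 or more of them were kept, scaled by the trimmed mean of M values and tested with the quasi-likelihood F test of edgeR 4.0.16 in R 4.3.3, at an adjusted p of 0.05 over all genes tested. The standard error is the log2 fold change over the root of F. Alternatives were DESeq2 1.42.0, other scalings and filters, all 4 groups in 1 fit, a replicate block, a gene length trend, donor sex, limma 3.58.1 on log2 FPKM with pseudocounts of 1 and 0.1, and leaving out each culture. Totals of 27804968 to 40101729 counts put 3 counts at 0.0737 to 0.111 CPM; counting error is small beside the spread between cultures.

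The 8 members, the wider list and the markers were chosen with earlier results of these data known. Genes named from the wider list were, for each comparison, up to 6 with the highest and 6 with the lowest log2 fold change among those that passed with a mean of at least 1 CPM; the values of Arnt, Alas1 and Iscu in the knockout and of Iscu in the treated knockout fall outside this rule and were chosen after they were seen. The nearest genes were the 2 with the smallest difference among genes of at least 5 CPM. Sequences come from GENCODE vM21 and RefSeq; 4 members matched the promoter table. The coordinates of genes are those of the files. Replicate numbers were checked by correlating the deviations of same-numbered cultures, and in no comparison did every pair exceed 0.1.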

Additional observations from a re-analysis of the deposited data

How the results depend on the processing

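Beside the reported fit, 11 alternatives and 8 fits without 1 culture were run for each comparison. The calls of Cybrd1 and Epas1 in both knockout groups and of Epas1 in MYO5B(G519R) held in all of them. Without 1 culture, 2 to 5 members passed against control in the knockout, 1 to 3 in MYO5B(G519R) and 2 to 5 in the treated knockout; donor sex as a covariate left 2 in the last. Of the wider list, 8 to 28, 6 to 30 and 5 to 21 passed without 1 culture; in MYO5B(G519R) DESeq2 called 20 and the replicate block 8, and the fit of all 4 groups called 24 in the treated knockout. Of all genes, 2963 to 7474, 2880 to 8146 and 2957 to 7459 passed, and 0 to 2 between MYO5B(G519R) and knockout, where DESeq2 called 4, no filter 2 and limma 0. For Compound-1 against untreated knockout DESeq2 called 91 and no filter 12. With the replicate block, 3, 2 and 3 members passed against control; same-numbered cultures were not found to be paired, and between MYO5B(G519R) and knockout 5 of 8 cultures correlated best with their own number and no member passed with the block (lowest adjusted p = 0.122, edgeR, for Slc11a2 and Heph).

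Only small differences that did not pass changed sign. Removing the gene length trend gave log2 fold changes against control of 0.0147 for Ftl1 in the knockout, -0.15 for Heph in MYO5B(G519R) and 0.20 for Ftl1 in the treated knockout; donor sex gave -0.00404 for Fth1 in MYO5B(G519R) and 0.0424 for Heph under Compound-1 against untreated knockout. Without 1 culture, the log2 fold change ran from -0.0859 to 0.191 for Heph and -0.0784 to 0.128 for Fth1 in MYO5B(G519R), from -0.707 to 0.0434 for Slc11a2 and -0.0830 to 0.0401 for Ftl1 in the treated knockout, from -0.165 to 0.167 for Heph and -0.193 to 0.0200 for Tfrc under Compound-1 against untreated knockout, and from -0.328 to 0.0210 for Epas1 between MYO5B(G519R) and knockout. The cause was not tested.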
